A study of Mus musculus with 18 samples.

Results

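The genes described here are 48 factors of ribosome biogenesis and of the nucleolus, the nuclear body in which ribosomes are assembled, and they were chosen by name. Each was read from probe sets annotated to that gene alone, and where a gene had several, the one with the highest mean signal over all arrays stood for it. A probe set was found for 41 of the 48, out of 12393 genes in all. Dkc1, Npm3, Nob1, Utp14a, Nat10 and Wdr3 had no such probe set in the annotation used, and that of Mrto4 lists other genes as well, so these 7 were not analysed here. All 41 passed the filter on low signal, a log2 signal of 4 on at least 3 arrays, and all 41 lay above it on every one of the 18 arrays. The filter therefore removed none of them.

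CD4+ T cells, the helper T cells, were purified by negative selection from mice aged 6 to 8 weeks and measured on Affymetrix Mouse Genome 430A 2.0 arrays in 6 groups of 3. The mice were WT or ERRa-/- (ERRKO) for ERRα, the orphan nuclear receptor that Esrra encodes and that is known to control genes of mitochondrial metabolism. The groups were WT cells with 20 µM XCT790, WT cells with 20 µM compound A, KO stimulated, WT stimulated, KO resting and WT resting cells. The series calls both compounds inhibitors of ERRα; XCT790 is known as its inverse agonist, while nothing further is given for compound A. Stimulation was with 10 µg of antibodies to CD3 and CD28 for 12 h, whereas resting cells were taken straight from the mouse, so the resting groups also lack the time in culture. The protocol places the inhibitors in the stimulation, but the stimulation field of the 6 inhibitor arrays says the opposite, so each inhibitor was set against stimulated and against resting WT cells. The series describes the 3 arrays of a group as independent biological replicates. Their number limits the precision.

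Ribosome assembly starts in the nucleolus, where RNA polymerase I transcribes a long precursor RNA. Small nucleolar ribonucleoproteins guide its modification: those of the box C/D class methylate it, and those of the box H/ACA class convert uridine to pseudouridine. The small subunit processome folds and cuts the part that becomes the 40S subunit, a further set of factors, among them the PeBoW complex, assembles the 60S subunit, and both are then matured and exported to the cytoplasm. T cells that meet antigen grow before they divide, and making ribosomes is a known part of that growth. The roles named below are those established in yeast or human cells.

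Esrra, the gene lost in the knockout, was checked first. It read 4.34, 4.65 and 4.65 on KO resting arrays, against 5.51, 5.25 and 5.51 on WT resting arrays, and 4.33, 4.30 and 4.71 on KO stimulated arrays, against 5.28, 5.47 and 5.36 on WT stimulated arrays. The KO signal was below the WT signal without overlap in both states, and it fell by 0.87 at rest and 0.92 after stimulation (log2; limma adjusted p = 2.16e-04 and 3.31e-04); the labels do not say which exons the allele lacks, so the probe set may or may not report on them. The deposited values are log2 signals made with GCRMA, and all arrays hold the same sorted values, so a change is always a shift in rank among genes. A bacterial control RNA, dap, set the 6 untreated WT arrays apart: its 5′ probe set read 7.45 to 8.51 on the other 12 arrays and 3.99 to 6.38 on these 6, while its 3′ probe set averaged 11.1 on the other 12 and 11.2 on these 6. Comparisons of KO or inhibitor arrays with untreated WT arrays cross this divide, so that there the group and the divide cannot be told apart. The responses within each genotype stay on one side, as does XCT790 minus compound A. The 7 T cell markers analysed, Cd4 among them, were above log2 4 in every group, and of the 2 markers of cytotoxic T cells Cd8a was below it on every array while Cd8b1 was above it on all 18, with group means of 5.81 to 7.32.

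All 41 ribosome biogenesis genes rose with stimulation in WT cells, and all 41 rose in KO cells. The median log2 difference was 1.75 in WT cells, a 3.37-fold rise, and it ranged from 0.30 for Imp3 to 2.80 for Tbl3. In KO cells the median was 1.58, or 2.99-fold, with a range of 0.49 to 2.59 and the same genes at both ends. Of the 41, 37 at least doubled in WT cells and 37 in KO cells, where 1079 and 994 of all 6873 tested genes were called so. Across all 6873 genes tested, 37.0% were called higher and 38.4% lower in WT cells, with a median difference of -0.01, and 37.7% were called higher and 35.7% lower in KO cells, with a median of 0.015. None of the 41 was called lower in either genotype, in the limma fit, at an unadjusted p under 0.05 or with array weights, a limma fit in which noisier arrays count less. The largest adjusted p among the 41 was 0.0045 in WT cells and 9.90e-05 in KO cells, both for Imp3. The map of all 41 genes by array shows the 6 resting arrays as a pale block against the other 12.

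**Figure D1:**
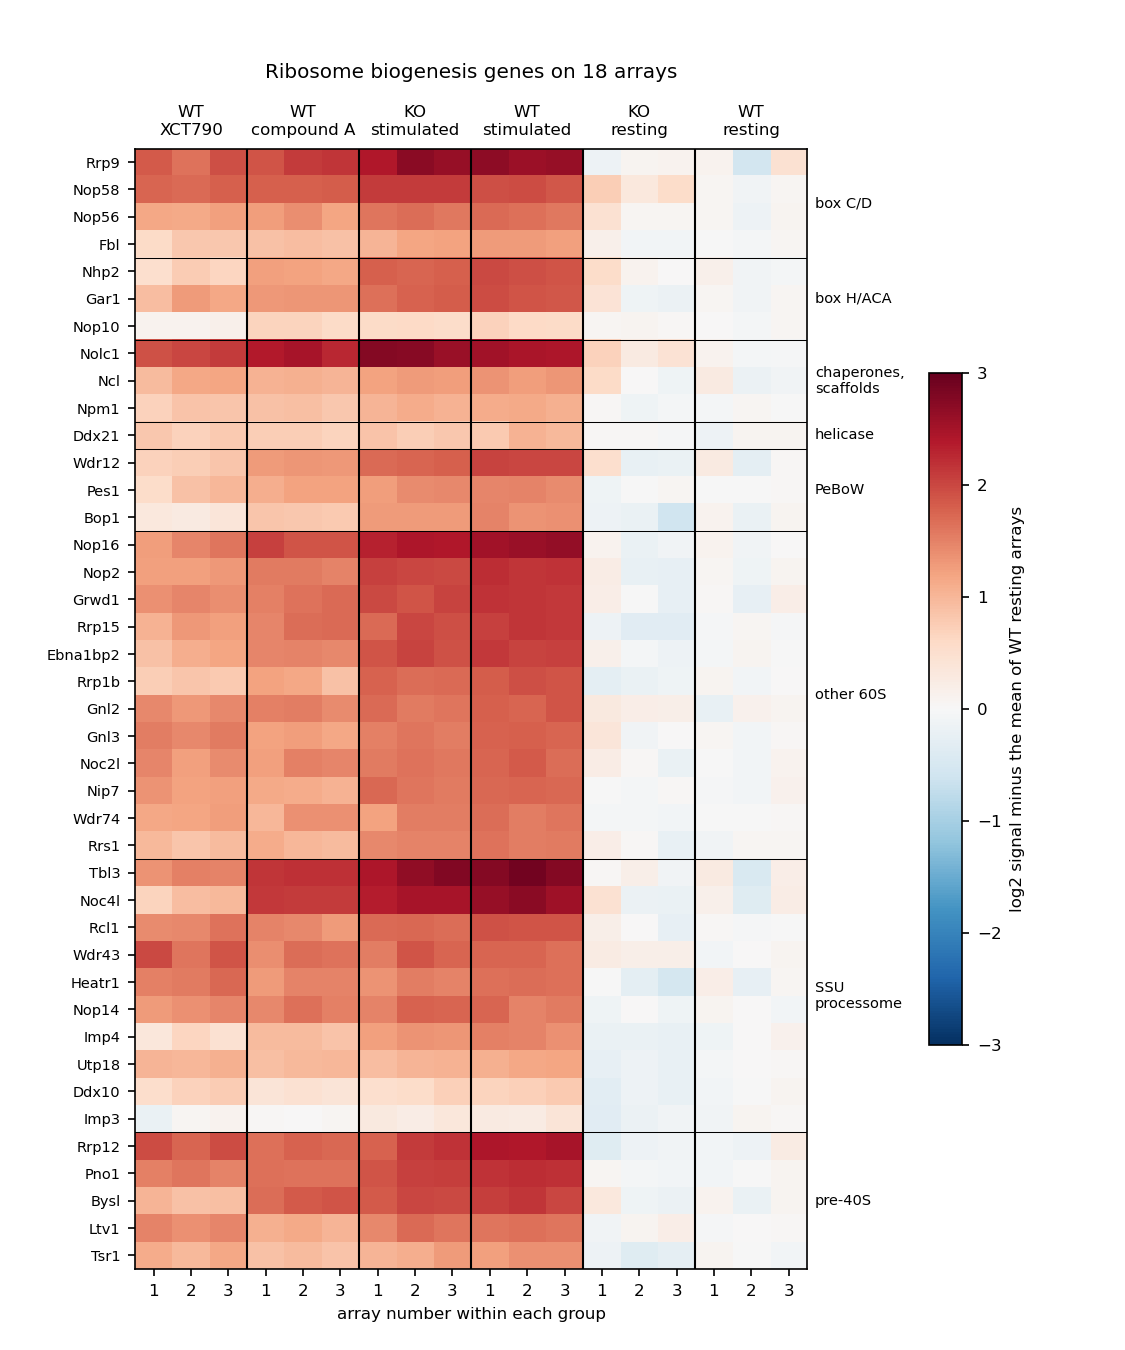
Log2 signal of the 41 genes on each of the 18 arrays, minus that gene's mean over the 3 WT resting arrays; rows are genes ordered by role, columns are arrays numbered within their group, and colour runs from -3 (blue) to 3 (red). Both stimulated groups are red in nearly every row, the resting groups are pale, and the inhibitor groups lie between, with Imp3 and Nop10 the palest rows.

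In bulk arrays, more of a transcript per cell and more cells that carry it cannot be told apart. Markers of other cells moved with stimulation. The 8 macrophage markers averaged 2.33 to 2.88 on KO stimulated arrays, with none of the 8 above log2 4 in the group mean, against 8.70 to 10.5 on KO resting arrays, with all 8 above it. In WT cells they averaged 2.40 to 2.42 after stimulation, with none of 8 above, and 8.22 to 9.27 at rest, with 8 of 8. The 5 B cell markers averaged 4.71 to 5.34 and 5.21 to 5.54 on KO and WT stimulated arrays, against 6.99 to 7.03 and 7.55 to 8.31 on KO and WT resting arrays. The 6 erythroid markers averaged 2.26 to 2.36 on KO stimulated arrays, with none of 6 above log2 4, against 7.49 to 9.43 on KO resting arrays, with 5 of 6, and 2.26 on each WT stimulated array, against 3.30 to 5.84 on WT resting arrays. The 8 neutrophil markers averaged 2.63 to 4.90 on KO stimulated arrays, against 6.31 to 8.88 on KO resting arrays, and 2.22 to 2.46 on WT stimulated arrays, against 3.50 to 5.31 on WT resting arrays. Of the 7 T cell markers, 4 fell in KO cells and 4 in WT cells, with medians of -0.58 and -0.59. Markers of cycling cells ran against the ribosome genes: the 5 averaged 5.94 to 7.88 on KO stimulated arrays, against 9.23 to 10.99 on KO resting arrays, and 6.16 to 6.58 on WT stimulated arrays, against 7.87 to 8.88 on WT resting arrays. The part of these cells in the rise was not tested.

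Among the box C/D proteins, Rrp9, a protein of the U3 particle that helps to start the cutting of the precursor, moved furthest. It read 10.19, 10.05 and 10.11 on WT stimulated arrays, against 7.59, 6.93 and 7.95 on WT resting arrays, and 9.88, 10.19 and 10.11 on KO stimulated arrays, against 7.33, 7.58 and 7.61 on KO resting arrays. The groups did not overlap, and the differences were 2.63 ± 0.19 in WT cells (SE; limma adjusted p = 1.20e-08) and 2.56 ± 0.19 in KO cells (adjusted p = 2.00e-08). The methyltransferase fibrillarin, Fbl, rose by 1.26 in WT cells and 1.15 in KO cells. Its scaffold partners rose too, Nop56 by 1.64 and 1.43, and Nop58 by 1.92 and 1.56.

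The box H/ACA proteins split. Nhp2 and Gar1, which bind the guide RNA particle beside the pseudouridine synthase, rose by 1.93 and 1.90 in WT cells and by 1.56 and 1.71 in KO cells. Nop10, the smallest protein of the same particle, read 13.65, 13.56 and 13.52 on WT stimulated arrays, against 12.95, 12.89 and 13.01 on WT resting arrays. That is a rise of 0.62 ± 0.055 (SE; limma adjusted p = 9.20e-08), with no overlap, and the rise in KO cells was 0.52 ± 0.055 (adjusted p = 7.32e-07). A further Nop10 probe set gave 0.48 in WT and 0.53 in KO cells.

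Nolc1, a nucleolar scaffold that accompanies small nucleolar particles, read 11.19, 11.10 and 11.07 on WT stimulated arrays, against 8.76, 8.60 and 8.62 on WT resting arrays. On KO stimulated arrays it read 11.40, 11.39 and 11.24, against 9.35, 8.92 and 9.10 on KO resting arrays. All stimulated values lay above all resting ones, and Nolc1 was 5.51-fold higher in WT and 4.67-fold higher in KO cells. The abundant nucleolar proteins nucleolin, Ncl, and nucleophosmin, Npm1, rose less, by 1.31 and 1.11 in WT and by 1.09 and 1.12 in KO cells. The RNA helicase Ddx21 rose by 0.94 in WT and 0.80 in KO cells on the probe set used, and by 2.65 and 2.61 on its other one. The size of a rise therefore also depends on the probe set.

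The 12 other genes of 60S assembly moved together, from 1.57 for Rrs1 to 2.58 for Nop16 in WT cells and from 1.40 for Gnl2 to 2.45 for Nop16 in KO cells. Nop16, a nucleolar 60S assembly factor, read 10.58, 10.67 and 10.71 on WT stimulated arrays, against 8.16, 7.96 and 8.08 on WT resting arrays, and 10.38, 10.49 and 10.48 on KO stimulated arrays, against 8.18, 7.87 and 7.95 on KO resting arrays. The groups lay more than 2 log2 units apart in both genotypes. Nop2, which methylates a cytosine of the large rRNA, rose by 2.17 ± 0.10 in WT cells and by 2.10 ± 0.10 in KO cells (SE; limma adjusted p = 1.64e-10 and 2.91e-10). Grwd1, a WD-repeat protein that chaperones a ribosomal protein, rose by 2.15 and 1.97, and Rrp15 by 2.10 and 2.17. Ebna1bp2, known in yeast as Ebp2, where it binds Rrs1, rose by 2.06 in WT and 1.96 in KO cells, and Rrs1 itself by 1.57 and 1.48. The nucleolar GTPases Gnl2 and Gnl3 rose by 1.81 and 1.77 in WT and by 1.40 and 1.45 in KO cells. Noc2l, Nip7, Wdr74 and Rrp1b completed the group, with rises of 1.75, 1.73, 1.61 and 1.87 in WT cells and of 1.58, 1.63, 1.49 and 1.92 in KO cells. The PeBoW complex, made of Pes1, Bop1 and Wdr12, rose as a whole. Wdr12 rose by 2.01 in WT and 1.71 in KO cells, Pes1 by 1.46 and 1.40, and Bop1 by 1.41 and 1.60.

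The small subunit processome held both the largest and the smallest rise. Tbl3, a WD-repeat subunit of its UTP-B part, read 9.12, 9.27 and 9.11 on WT stimulated arrays, against 6.64, 5.90 and 6.56 on WT resting arrays, and 8.79, 9.04 and 9.14 on KO stimulated arrays, against 6.39, 6.53 and 6.26 on KO resting arrays. It was 6.96-fold higher in WT (limma adjusted p = 7.38e-10) and 6.04-fold higher in KO cells (adjusted p = 1.98e-09). Noc4l, which pairs with Nop14 in the processome, rose by 2.62 ± 0.17 in WT and 2.41 ± 0.17 in KO cells (SE), and Nop14 itself by 1.60 and 1.75. Imp3, a subunit that helps the U3 RNA to pair with the precursor, read 11.80, 11.78 and 11.90 on WT stimulated arrays, against 11.42, 11.60 and 11.56 on WT resting arrays. Its groups did not overlap, but its rise was 1.23-fold only, and 1.4-fold in KO cells. Imp4, its partner in the same module, was 2.74-fold higher in WT and 2.83-fold higher in KO cells after stimulation. The helicase Ddx10 rose by 0.72 on the log2 scale in WT and 0.82 in KO cells. Rcl1, the nuclease-like factor of the processome, rose by 1.89 and 1.72. Heatr1, a large scaffold also needed for polymerase I transcription in human cells, rose by 1.66 and 1.73, its UTP-A partner Wdr43 by 1.71 and 1.52, and Utp18, beside Tbl3 in UTP-B, by 1.14 and 1.21.

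The 5 factors of late 40S maturation rose by 1.33 to 2.43 in WT and 1.39 to 2.22 in KO cells. Rrp12, which takes part in export of both subunits, read 9.05, 9.03 and 9.09 on WT stimulated arrays, against 6.54, 6.47 and 6.88 on WT resting arrays, and 8.41, 8.72 and 8.79 on KO stimulated arrays, against 6.26, 6.47 and 6.53 on KO resting arrays. Pno1, which holds the 40S precursor ready for its last cut, read 11.81, 11.87 and 11.84 on WT stimulated arrays, against 9.57, 9.64 and 9.72 on WT resting arrays. Its difference, 2.20 ± 0.066 (SE), had the smallest adjusted p of the 41 in the limma fit of WT cells, 3.41e-12, and it was 2.02 ± 0.066 in KO cells (adjusted p = 1.09e-11). Bysl, bystin, which binds the 40S precursor, rose by 2.08 and 1.94, Ltv1, an export adaptor, by 1.62 and 1.53, and Tsr1, a GTPase-like factor, by 1.33 and 1.39. The plot of the responses gives all 41 by genotype, together with the genotype differences described further on.

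**Figure D2:**
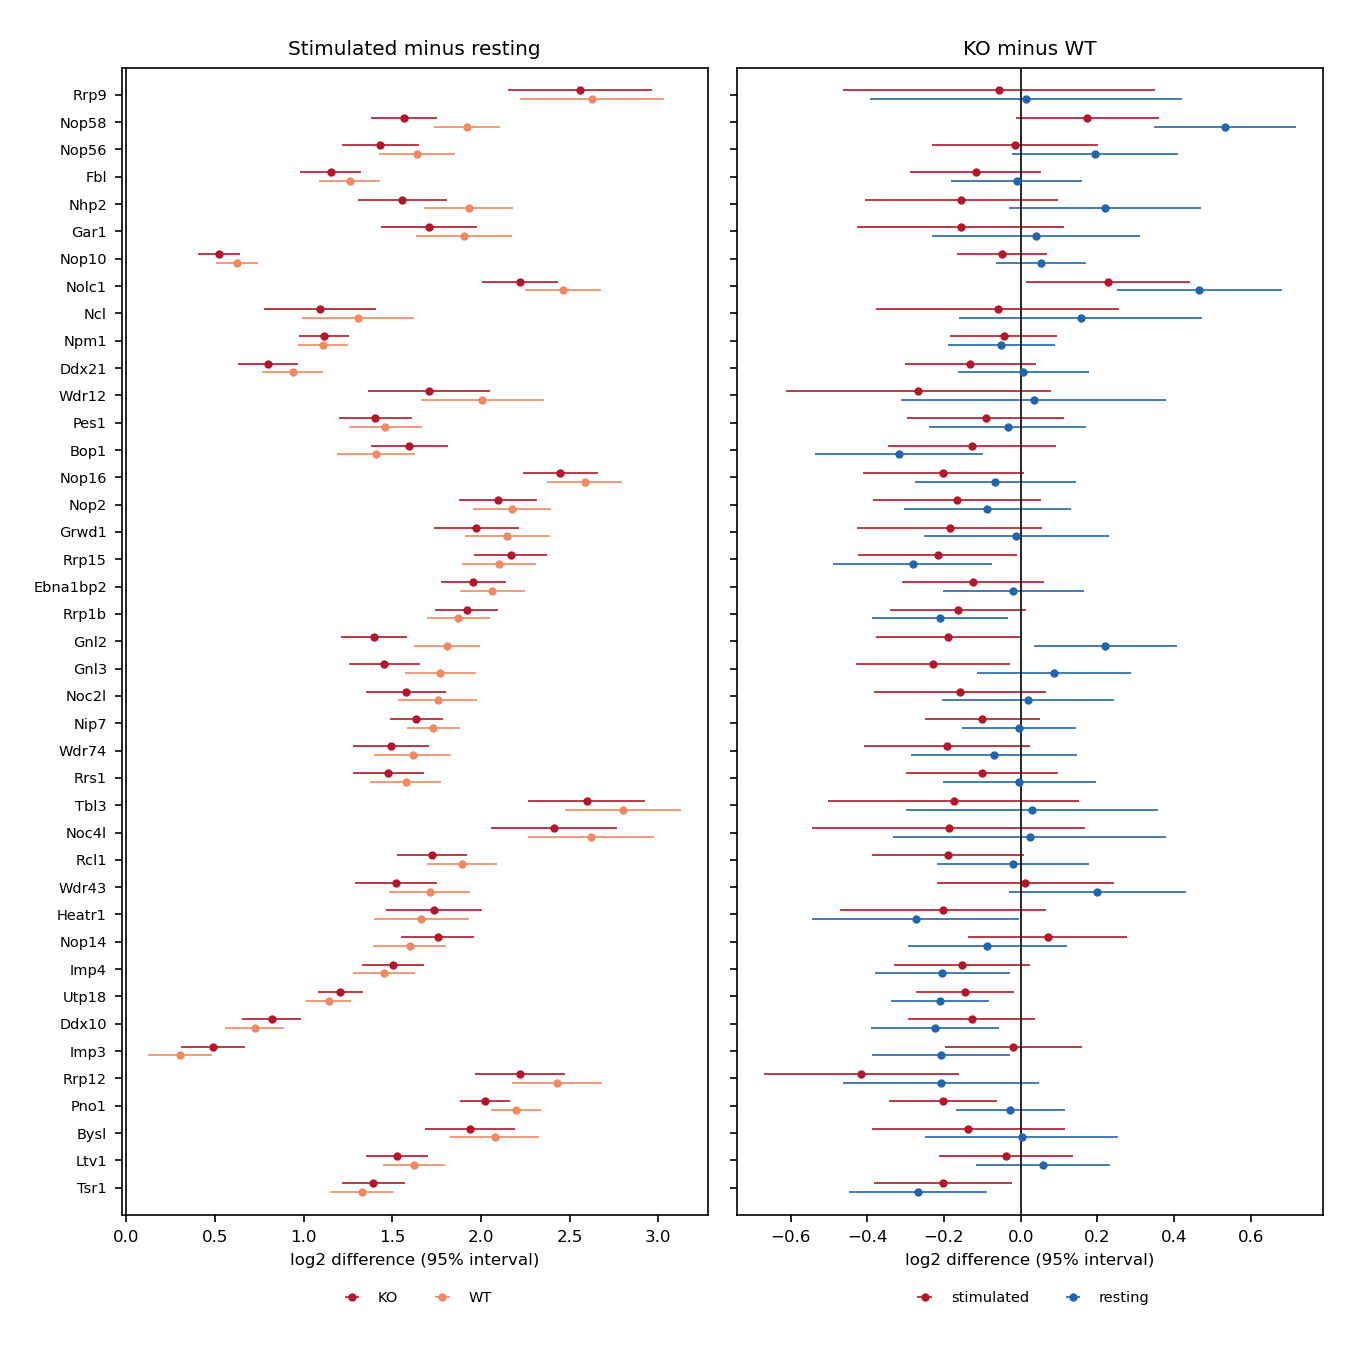
Log2 difference of each of the 41 genes with its 95% interval; left, stimulated minus resting in KO (dark red) and WT cells (orange); right, KO minus WT after stimulation (dark red) and at rest (blue), on a narrower scale. All intervals on the left lie right of 0, and on the right most intervals include 0, with Nop58 and Nolc1 at rest furthest to the right.

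Promoters were compared because these genes moved together. The RefSeq table of the GRCm38.p6 assembly held windows from 250 bases before to 50 bases after the start for 34 of the 41 genes. The word CACGTG, the E-box that MYC and related factors bind, reads the same on both strands, and it occurred in a window of 9 of the 34 genes, or 26.5%. It occurred in 12.9% of the 5666 tested genes with a window and in 8.09% of all 27025 genes of the table. The word TNAAGGTCA, bound by estrogen-related receptors, was searched on both strands, and no window of the 34 genes held both words. It occurred in 1 of the 34 genes, or 2.94%, against 0.812% of tested genes and 1.43% of all genes. These are matches of letters in short windows, and binding was not measured.
Shown first are the 5 genes with an E-box and the largest mean rise over both genotypes. Each is printed from 150 bases before to 50 after the start, 5′ to 3′ on the gene's strand, with the E-box in capitals. The E-box begins 60 bases before the start in Nop2. With the start as base 1, it begins at bases 38, 35, 18 and 29 in Pno1, Grwd1, Wdr43 and Ltv1. They are Nop2 (chr6:125131733-125131932, plus strand), Pno1 (chr11:17211540-17211739, minus strand), Grwd1 (chr7:45830740-45830939, minus strand), Wdr43 (chr17:71616065-71616264, plus strand) and Ltv1 (chr10:13193088-13193287, minus strand).
Nop2: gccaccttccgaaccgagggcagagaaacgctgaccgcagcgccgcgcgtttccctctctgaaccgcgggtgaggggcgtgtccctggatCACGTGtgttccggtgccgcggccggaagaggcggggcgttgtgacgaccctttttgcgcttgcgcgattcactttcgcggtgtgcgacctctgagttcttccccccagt
Pno1: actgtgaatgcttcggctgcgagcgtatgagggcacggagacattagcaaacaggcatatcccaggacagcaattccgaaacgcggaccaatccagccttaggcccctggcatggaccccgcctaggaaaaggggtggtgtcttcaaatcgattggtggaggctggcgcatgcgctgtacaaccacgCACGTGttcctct
Grwd1: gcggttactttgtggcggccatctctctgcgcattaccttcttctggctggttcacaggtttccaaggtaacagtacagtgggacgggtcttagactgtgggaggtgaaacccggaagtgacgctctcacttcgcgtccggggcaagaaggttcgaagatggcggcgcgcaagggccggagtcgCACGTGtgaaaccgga
Wdr43: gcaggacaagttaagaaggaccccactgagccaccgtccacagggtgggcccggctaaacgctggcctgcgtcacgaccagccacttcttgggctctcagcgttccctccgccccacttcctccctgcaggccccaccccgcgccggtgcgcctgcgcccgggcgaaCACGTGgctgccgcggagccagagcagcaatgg
Ltv1: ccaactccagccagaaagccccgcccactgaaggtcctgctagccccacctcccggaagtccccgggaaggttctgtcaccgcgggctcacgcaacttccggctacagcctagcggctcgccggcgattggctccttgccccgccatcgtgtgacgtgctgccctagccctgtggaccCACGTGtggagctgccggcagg
Rrp9 (chr9:106477159-106477358, plus strand) had the largest mean rise of the genes with a window and no E-box, and it is shown for contrast.
Rrp9: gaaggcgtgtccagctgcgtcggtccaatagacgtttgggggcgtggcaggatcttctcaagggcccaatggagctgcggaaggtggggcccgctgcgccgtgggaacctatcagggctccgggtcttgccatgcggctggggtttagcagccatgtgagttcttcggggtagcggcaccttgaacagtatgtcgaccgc
Nhp2 (chr11:51619623-51619822, plus strand), singled out after its values were seen, was the 1 gene with the receptor word, here in capitals and on the opposite strand, 139 bases before the start.
Nhp2: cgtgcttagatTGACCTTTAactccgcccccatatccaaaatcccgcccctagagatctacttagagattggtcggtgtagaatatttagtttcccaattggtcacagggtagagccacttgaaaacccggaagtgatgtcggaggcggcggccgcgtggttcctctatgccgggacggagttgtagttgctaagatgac
Genes with and without the E-box both rose: Rrp9, Nop16, Noc4l and Nolc1, which have none in their windows, rose more than Nop2, and Utp18, which has one, rose by 1.14 in WT cells.

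In KO resting minus WT resting cells 2 of the 41 genes were called higher and 3 lower. These counts lie near the shares over all tested genes, of which 6.74% were called higher and 12.3% lower. The median of the 41 was -0.010, against -0.11 over all tested genes. Nop58 and Nolc1 were the 2 that were higher. Nop58, the box C/D scaffold, read 11.96, 11.53 and 11.77 on KO resting arrays, against 11.27, 11.12 and 11.27 on WT resting arrays, a difference of 0.53 ± 0.087 (SE; limma adjusted p = 0.0013). For Nolc1, given above, it was 0.47 ± 0.10 (adjusted p = 0.0070). The KO arrays of both genes lay above all WT arrays. Of the other Nolc1 probe sets, one averaged 6.65 ± 0.31 in KO resting and 4.87 ± 0.16 in WT resting cells and the other 7.52 ± 0.30 and 7.73 ± 0.18 (SD, n = 3), so the second did not show the difference. Nop58 had 1 probe set. This comparison crosses the divide in the dap control.

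Bop1, Tsr1 and Utp18 were the 3 that fell in KO resting cells, and shifting all arrays to a common median ended the 3 calls (limma adjusted p = 0.0658, 0.0703 and 0.0571). Bop1, of the PeBoW complex, read 8.49, 8.45 and 8.06 on KO resting arrays, against 8.76, 8.46 and 8.73 on WT resting arrays, so the groups overlapped, with a difference of -0.32 ± 0.10 (SE; limma adjusted p = 0.0436). Tsr1 read 7.87, 7.65 and 7.75 on KO resting arrays, against 8.11, 8.02 and 7.94 on WT resting arrays, without overlap, and changed by -0.27 ± 0.084 (SE; limma adjusted p = 0.0387). Utp18 read 9.94, 10.03 and 9.98 on KO resting arrays, against 10.14, 10.20 and 10.24 on WT resting arrays, also without overlap, and changed by -0.21 ± 0.059 (SE; limma adjusted p = 0.0262). Equally numbered arrays deviated together in this comparison, although the labels state no pairing. With the array number as a block, 5 rather than 3 genes were called lower and 2 higher. In that fit 14.9% of all tested genes were called lower and 7.68% higher. With 1 array left out and no block, the lower calls came to 0 without WT resting array 3 and 0 without KO resting array 3. They came to 1 without WT resting array 2 and 5 without KO resting array 1. In a fit on the 2 resting groups alone, no gene was called in either direction.

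On the probe sets used, the intervals of the 36 genes that were not called ran from -0.54 to 0.47. A doubling or halving of any of them lay outside its interval there. The other probe sets of Ddx10 and Wdr12 more than doubled. They averaged 7.73 ± 0.75 and 6.08 ± 0.59 in KO resting cells, against 5.51 ± 0.23 and 4.50 ± 0.40 in WT resting cells (SD, n = 3). That of Nip7 went the other way, at 3.55 ± 0.17 against 4.46 ± 0.097. Markers of other cells moved with this comparison. The 6 erythroid markers averaged 7.49 to 9.43 on KO resting arrays, with 5 of 6 above log2 4, against 3.30 to 5.84 on WT resting arrays, with 3 of 6. The 8 neutrophil markers averaged 6.31 to 8.88 in KO cells, with 7 of 8 above log2 4, against 3.50 to 5.31 in WT cells, with 2 of 8. The 5 markers of cycling cells averaged 9.23 to 10.99 in KO cells and 7.87 to 8.88 in WT cells, with all 5 above in both. Array 1 had the highest erythroid, neutrophil and cycling means in both groups. The 5 B cell markers went the other way, at 6.99 to 7.03 in KO cells and 7.55 to 8.31 in WT cells, and 3 of the 4 tested fell. On arrays 2 and 3 alone, 2 of the 41 genes were called higher and 4 lower, where 9.62% of all tested genes were called higher and 15.7% lower. The part of these cells in the genotype differences was not tested.

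After stimulation no gene of the 41 was called between KO and WT cells, in either direction, where 1.59% of all tested genes were called higher and 0.597% lower. At an unadjusted p under 0.05, 1 was higher and 7 were lower, where 6.17% of all tested genes were higher and 9.33% lower. With array weights 3 were called higher and 15 lower, where the same fit called 8.85% of all tested genes higher and 15.0% lower. The difference was below 0 in 37 of the 41, with a median of -0.14, a factor of 1.11, and a range of -0.42 to 0.23. Over all 6873 tested genes it was below 0 in 4545, with a median of -0.063. Rrp12 read 8.41, 8.72 and 8.79 on KO stimulated arrays, against 9.05, 9.03 and 9.09 on WT stimulated arrays. Every KO array lay below every WT array, but the difference, -0.42 ± 0.12 (SE), had a limma adjusted p of 0.0980, the smallest of the 41. KO stimulated array 1, which read lowest for Rrp12, also stood apart in its markers: the 8 neutrophil markers averaged 4.90 on it, against 2.63 and 2.70 on the other 2 KO stimulated arrays, and the 5 markers of cycling cells 7.88, against 5.96 and 5.94. On WT stimulated arrays these lists averaged 2.22 to 2.46 and 6.16 to 6.58. On arrays 2 and 3 alone limma again called 0 of the 41 in either direction, where 3.96% of all tested genes were called higher and 2.33% lower. Wdr12 differed by -0.27 ± 0.16 (adjusted p = 0.454) and Gnl3, nucleostemin, a GTPase of stem and dividing cells, by -0.23 ± 0.094 (adjusted p = 0.254). On the other side stood Nolc1 with 0.23 ± 0.10 (adjusted p = 0.294), Nop58 with 0.17 ± 0.087 (adjusted p = 0.366) and Nop14 with 0.071 ± 0.097 (adjusted p = 0.778). On the probe sets used, the 95% intervals of all 41 lay within -0.67 to 0.44. None of these intervals reached a halving or a doubling. The other Ddx10 probe set was higher in KO stimulated than in WT stimulated cells by 2.14.

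The response itself was not called different between the genotypes for any of the 41. In the interaction, the KO response minus the WT response, 0 were higher and 0 lower, where 0.480% of all tested genes were called higher and 0.422% lower. At an unadjusted p under 0.05, 0 were higher and 4 lower, where 9.52% of all tested genes were higher and 7.94% lower. With array weights 1 was called higher and 3 lower, where that fit called 10.0% of all tested genes higher and 7.77% lower. The median was -0.12, against 0.051 over all tested genes, and intervals ran from -0.79 to 0.50. The values furthest below 0 were those of Gnl2, a nucleolar GTPase, with -0.41 ± 0.12 (SE; limma adjusted p = 0.121), Nhp2 with -0.37 ± 0.17 (adjusted p = 0.264) and Nop58 with -0.36 ± 0.12 (adjusted p = 0.159). Furthest above were Bop1 with 0.19 ± 0.14, Imp3 with 0.19 ± 0.12 and Nop14 with 0.16 ± 0.14 (adjusted p = 0.519, 0.434 and 0.578). Without KO resting array 2, 1 gene was called lower.

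With either inhibitor, most of the 41 genes read lower than in stimulated WT cells. With XCT790, 33 fell and none rose, where 29.1% of all tested genes were called higher and 36.9% lower. With compound A, 33 fell and none rose, where 14.5% were called higher and 18.7% lower. No gene was higher at an unadjusted p under 0.05 with either inhibitor. The median difference was -0.50 with XCT790 and -0.48 with compound A, a factor of 1.41 and 1.40, against -0.062 and -0.030 over all tested genes. On the probe sets used, the range was wider with XCT790, -1.77 to 0.12, than with compound A, -0.79 to 0.0098. There 9 genes at least halved with XCT790 and none with compound A, where 835 and 160 of all 6873 tested genes were called so. Other probe sets of Ncl, Imp4 and Pes1 did at least halve with compound A, at -1.19, -1.03 and -1.02. The 2 comparisons share the 3 WT stimulated arrays. Averaged over the 41, the log2 signal was 10.60 ± 0.053 with XCT790 and 10.78 ± 0.034 with compound A, against 11.21 ± 0.013 in WT stimulated cells (SD, n = 3 each). The same average was 11.09 ± 0.054 in KO stimulated cells, 9.46 ± 0.11 in KO resting cells and 9.47 ± 0.078 in WT resting cells (SD, n = 3 each).

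Noc4l fell furthest with XCT790 on the probe sets used. It read 8.94, 9.20 and 9.23 with XCT790 and 10.40, 10.37 and 10.36 with compound A, against 10.89, 10.98 and 10.81 in WT stimulated cells. The 3 groups did not overlap, and its signal was 29.4% of the stimulated one with XCT790 (log2 difference -1.77 ± 0.17, SE; limma adjusted p = 4.41e-07). Under compound A the signal was 69.9% of the stimulated one (-0.52 ± 0.17; limma adjusted p = 0.0279). Both other Noc4l probe sets behaved likewise, with means of 8.51 ± 0.19 and 8.49 ± 0.23 under XCT790, against 10.18 ± 0.051 and 10.13 ± 0.089 in WT stimulated cells (SD, n = 3). Tbl3, the processome gene with the largest rise, read 7.73, 7.88 and 7.85 with XCT790 and 8.50, 8.56 and 8.57 with compound A, against the WT stimulated values given above. It fell by 1.35 with XCT790 and 0.62 with compound A on the log2 scale (limma adjusted p = 2.60e-06 and 0.0066).

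The H/ACA protein Nhp2 read 11.77, 12.04 and 11.90 with XCT790 and 12.51, 12.47 and 12.43 with compound A, against 13.24, 13.20 and 13.15 in WT stimulated cells. Each step lay outside the spread of the arrays, with differences of -1.29 ± 0.12 for XCT790 and -0.73 ± 0.12 for compound A (SE; limma adjusted p = 3.05e-07 and 4.05e-04). Wdr12 of PeBoW read 9.91, 9.97 and 10.04 with XCT790 and 10.51, 10.56 and 10.53 with compound A, against 11.25, 11.22 and 11.22 in WT stimulated cells. The groups did not overlap, and its differences were -1.25 ± 0.16 for XCT790 and -0.70 ± 0.16 for compound A (SE; limma adjusted p = 8.78e-06 and 0.0046). Its other, dimmer probe set averaged 6.84 ± 0.015 with XCT790 and 6.16 ± 0.62 with compound A, against 6.19 ± 0.20 in WT stimulated cells (SD, n = 3), so it did not show the fall, and with the mean of all probe sets neither Wdr12 call passed (-0.30 for XCT790 and -0.36 for compound A; limma adjusted p = 0.203 and 0.188). Pes1 and Bop1 of the same complex fell by 0.65 and 1.09 with XCT790, and by 0.29 and 0.60 with compound A.

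Bysl, which acts in late 40S maturation, differed between the inhibitors on the probe set used, but much less on its other one. On the probe set used it read 9.59, 9.45 and 9.48 with XCT790, below every array of the other 2 groups, and 10.25, 10.41 and 10.46 with compound A, against 10.66, 10.71 and 10.58 in WT stimulated cells. The difference was -1.14 ± 0.12 with XCT790 (SE; limma adjusted p = 1.01e-06) and -0.27 ± 0.12 with compound A, which was not called (adjusted p = 0.0907). The other Bysl probe set averaged 7.57 ± 0.19 with XCT790 and 7.78 ± 0.035 with compound A, against 8.56 ± 0.034 in WT stimulated cells (SD, n = 3), so there both inhibitor groups lay below every stimulated array and overlapped each other. Nop16 fell by 1.14 with XCT790 and 0.64 with compound A, and Nop2 by 0.93 and 0.63. With compound A the largest fall on the probe sets used was that of Rrp1b, a nucleolar protein of 60S assembly. It read 9.79, 9.88 and 9.83 with XCT790 and 10.26, 10.22 and 9.93 with compound A, against 10.86, 10.98 and 10.93 in WT stimulated cells, a difference of -0.79 ± 0.083 for compound A (SE; limma adjusted p = 1.67e-05). Its other probe sets averaged 9.26 ± 0.025 and 10.30 ± 0.081 with compound A, against 10.00 ± 0.10 and 10.56 ± 0.052 in WT stimulated cells (SD, n = 3), so the place of Rrp1b in the order depends on the probe set. Rrp12 differed by -0.71 ± 0.12 (adjusted p = 5.36e-04), and with XCT790 it fell by 0.54.

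On the probe sets used, the median differences by role were largest in PeBoW, -1.09 with XCT790 and -0.60 with compound A, and in the H/ACA genes, -0.78 and -0.59. The other 60S genes had -0.69 and -0.57, the late 40S genes -0.54 and -0.55, and the C/D genes -0.50 and -0.37. Nearest 0 were the processome with -0.27 and -0.29, the chaperones and scaffolds with -0.31 and -0.25, and Ddx21 with -0.17 and -0.23. With compound A several roles thus lay close to PeBoW. The PeBoW medians rest on 3 genes, and the other probe set of Wdr12 did not show the fall. The order of the roles therefore depends on the probe set. On the probe sets used, all 12 other 60S genes and all 3 PeBoW genes fell with both inhibitors. Over all tested genes, 36.9% fell with XCT790 and 18.7% with compound A. Wdr12 of PeBoW lost both calls with the mean of all probe sets. All 3 H/ACA genes fell with XCT790 and 2 with compound A, and 3 of the 4 C/D genes fell with each. The other probe set of Nop56, a C/D gene that fell with both, did not show the fall. It averaged 12.29 ± 0.095 with XCT790 and 12.37 ± 0.12 with compound A, against 12.25 ± 0.025 in WT stimulated cells (SD, n = 3). Of the 10 processome genes, 6 fell with XCT790 and 7 with compound A, and of the 5 late 40S genes, 4 fell with each. With XCT790 the 8 genes not called were Ddx21, Nop58, Ncl, Ltv1, Utp18, Wdr43, Ddx10 and Heatr1, and their intervals ran from -0.52 to 0.35. With compound A they were Nop58, Nop10, Ncl, Nolc1, Bysl, Wdr43, Nop14 and Heatr1, with intervals from -0.58 to 0.14. Nop58, Ncl, Wdr43 and Heatr1 were thus called with neither. For Ncl and Wdr43 the probe sets disagreed. With XCT790 the 3 other Ncl probe sets averaged 11.67 ± 0.25, 9.67 ± 0.34 and 7.52 ± 0.055, against 11.17 ± 0.11, 11.67 ± 0.037 and 7.71 ± 0.12 in WT stimulated cells (SD, n = 3). The other Wdr43 probe set averaged 9.86 ± 0.059 with XCT790, against 10.60 ± 0.11 in WT stimulated cells. For Ddx21 and Nolc1 the probe sets disagreed too. The other Ddx21 probe set averaged 10.04 ± 0.084 with XCT790, against 10.72 ± 0.056 in WT stimulated cells. The other Nolc1 probe sets averaged 9.01 ± 0.17 and 8.25 ± 0.026 with compound A, against 8.89 ± 0.15 and 9.07 ± 0.021 in WT stimulated cells (SD, n = 3).

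These comparisons cross the divide in the dap control. With KO stimulated arrays as the comparison instead, which lie on the side of the inhibitor arrays but differ in genotype, 28 genes fell with XCT790 and 22 with compound A, and none rose. Against the same arrays 33.9% of all tested genes were called lower and 31.3% higher with XCT790, and 12.0% lower and 14.1% higher with compound A. Markers of cycling cells moved in the same direction: the 5 markers averaged 3.61 to 4.99 with XCT790, with 3 of 5 above log2 4, and 4.49 to 5.48 with compound A, with 5 of 5, against 6.16 to 6.58 on WT stimulated arrays, with 5 of 5. The 7 T cell markers averaged 11.6 on XCT790 arrays and 12.2 on compound A arrays, against 11.9 to 12.1 on WT stimulated arrays. Macrophage and erythroid markers were below log2 4 in all 3 of these groups. The part of cycling cells in the lower signals was not tested.

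**Figure D3:**
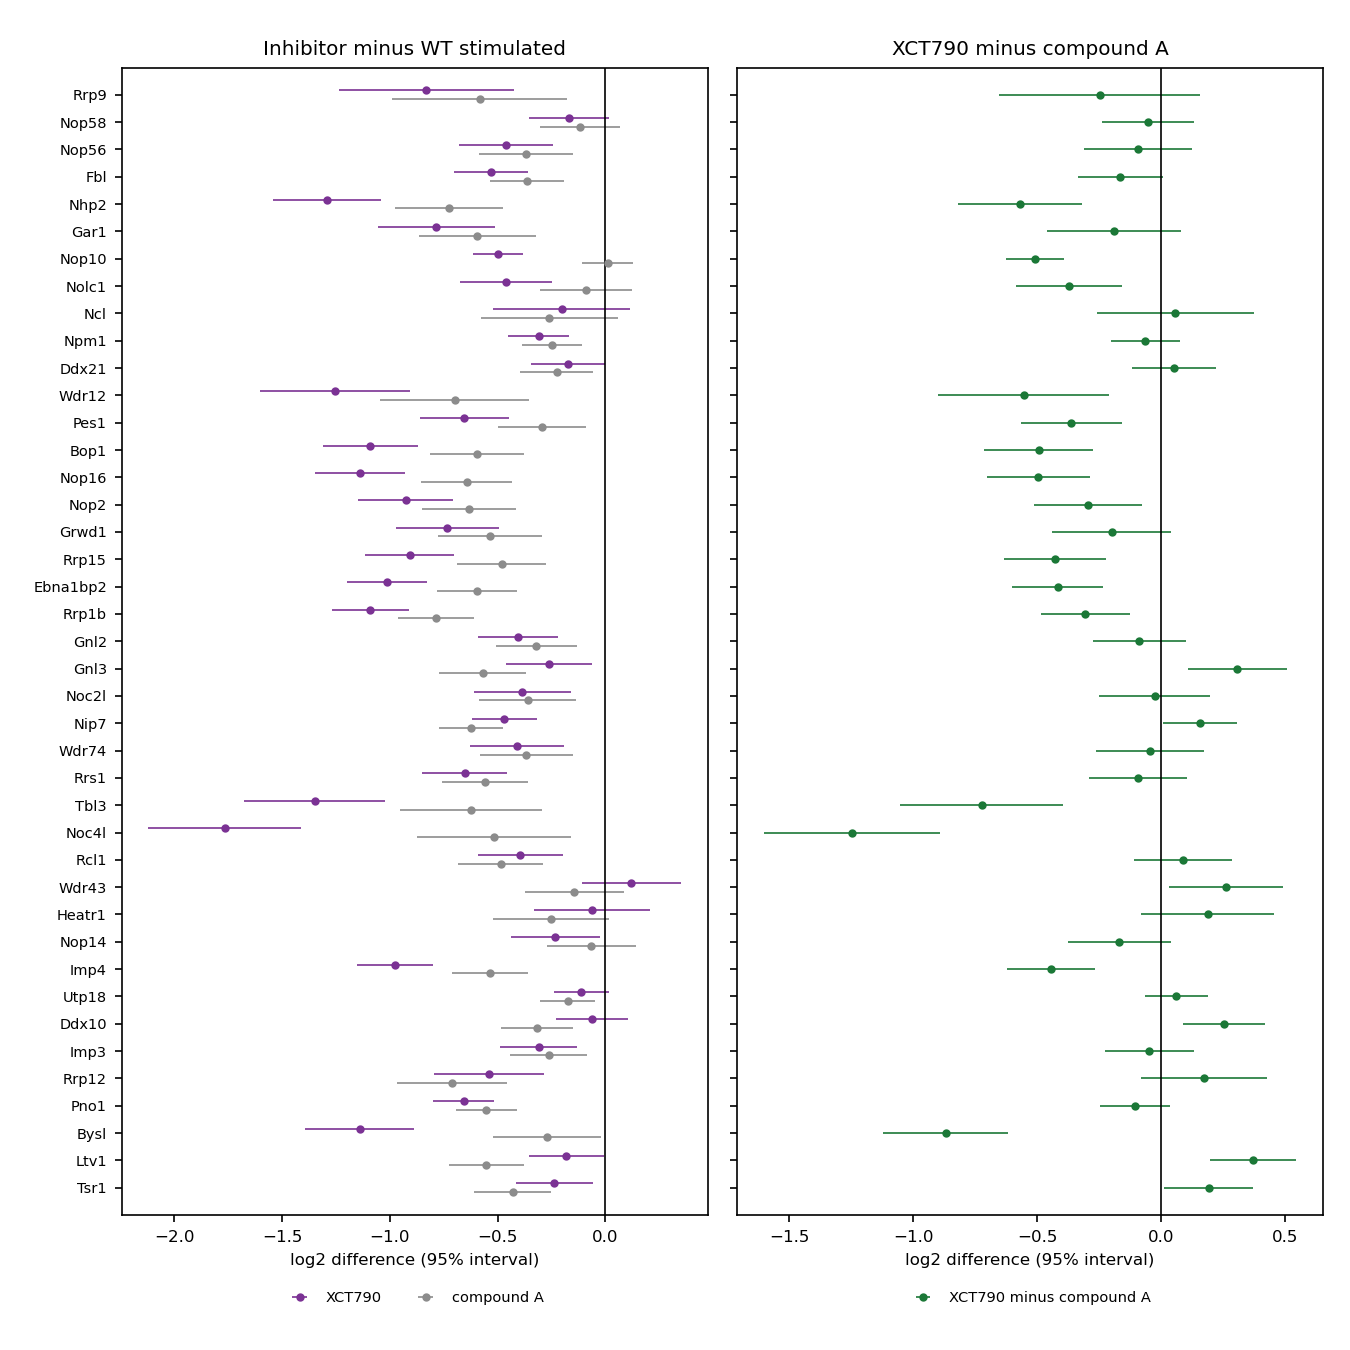
Log2 difference of each of the 41 genes with its 95% interval; left, XCT790 (purple) and compound A (grey) minus WT stimulated; right, XCT790 minus compound A. On the left nearly all points lie left of 0 and the purple points spread further, to -1.77 for Noc4l; on the right Noc4l, Bysl and Tbl3 lie furthest left and Ltv1 furthest right.

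The 2 inhibitors were also set against each other, at the same dose and time and on arrays that lie on one side of the dap divide. With XCT790 minus compound A, 3 of the 41 genes were called higher and 15 lower, where 24.8% of all tested genes were called higher and 27.8% lower. The median was -0.10, against -0.015 over all tested genes. On the probe sets used, the largest differences were those of Noc4l at -1.25 ± 0.17, Bysl at -0.87 ± 0.12 and Tbl3 at -0.72 ± 0.15 (SE; limma adjusted p = 2.49e-05, 2.85e-05 and 0.0011). The other Bysl probe set differed by -0.21 only, with overlapping arrays. Nhp2 followed at -0.57 and Wdr12 at -0.55. For Wdr12 the mean of all probe sets gave 0.058 instead (adjusted p = 0.845), the opposite sign. Nop10 read 13.06, 13.06 and 13.11 with XCT790, against 13.62, 13.61 and 13.53 with compound A. The XCT790 arrays lay just above the WT resting arrays given above and below every stimulated one, and the difference between inhibitors, -0.51 ± 0.055 (SE), had the smallest limma adjusted p of the 41, 3.90e-06; the other Nop10 probe set averaged 12.10 ± 0.051 with XCT790 and 12.62 ± 0.054 with compound A (SD, n = 3).

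Ltv1, Gnl3 and Ddx10 went the other way. Ltv1 read 10.35, 10.23 and 10.31 with XCT790, against 9.91, 9.99 and 9.86 with compound A, a difference of 0.37 ± 0.082 without overlap (SE; limma adjusted p = 0.0015). Gnl3 was higher by 0.31 ± 0.094 (adjusted p = 0.0124) and the helicase Ddx10 by 0.25 ± 0.077 (adjusted p = 0.0126). The Ddx10 call ended without XCT790 array 3 (adjusted p = 0.0611) and with the mean of all probe sets (adjusted p = 0.110). On the probe sets used, all 3 PeBoW genes and 2 of 3 H/ACA genes were lower with XCT790, and none of the 4 C/D genes was called. Among late 40S genes Bysl was lower while Ltv1 was higher. Over all tested genes, 27.8% were called lower and 24.8% higher. For the 23 genes not called, the intervals of the difference ran from -0.65 to 0.49.

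**Figure D4:**
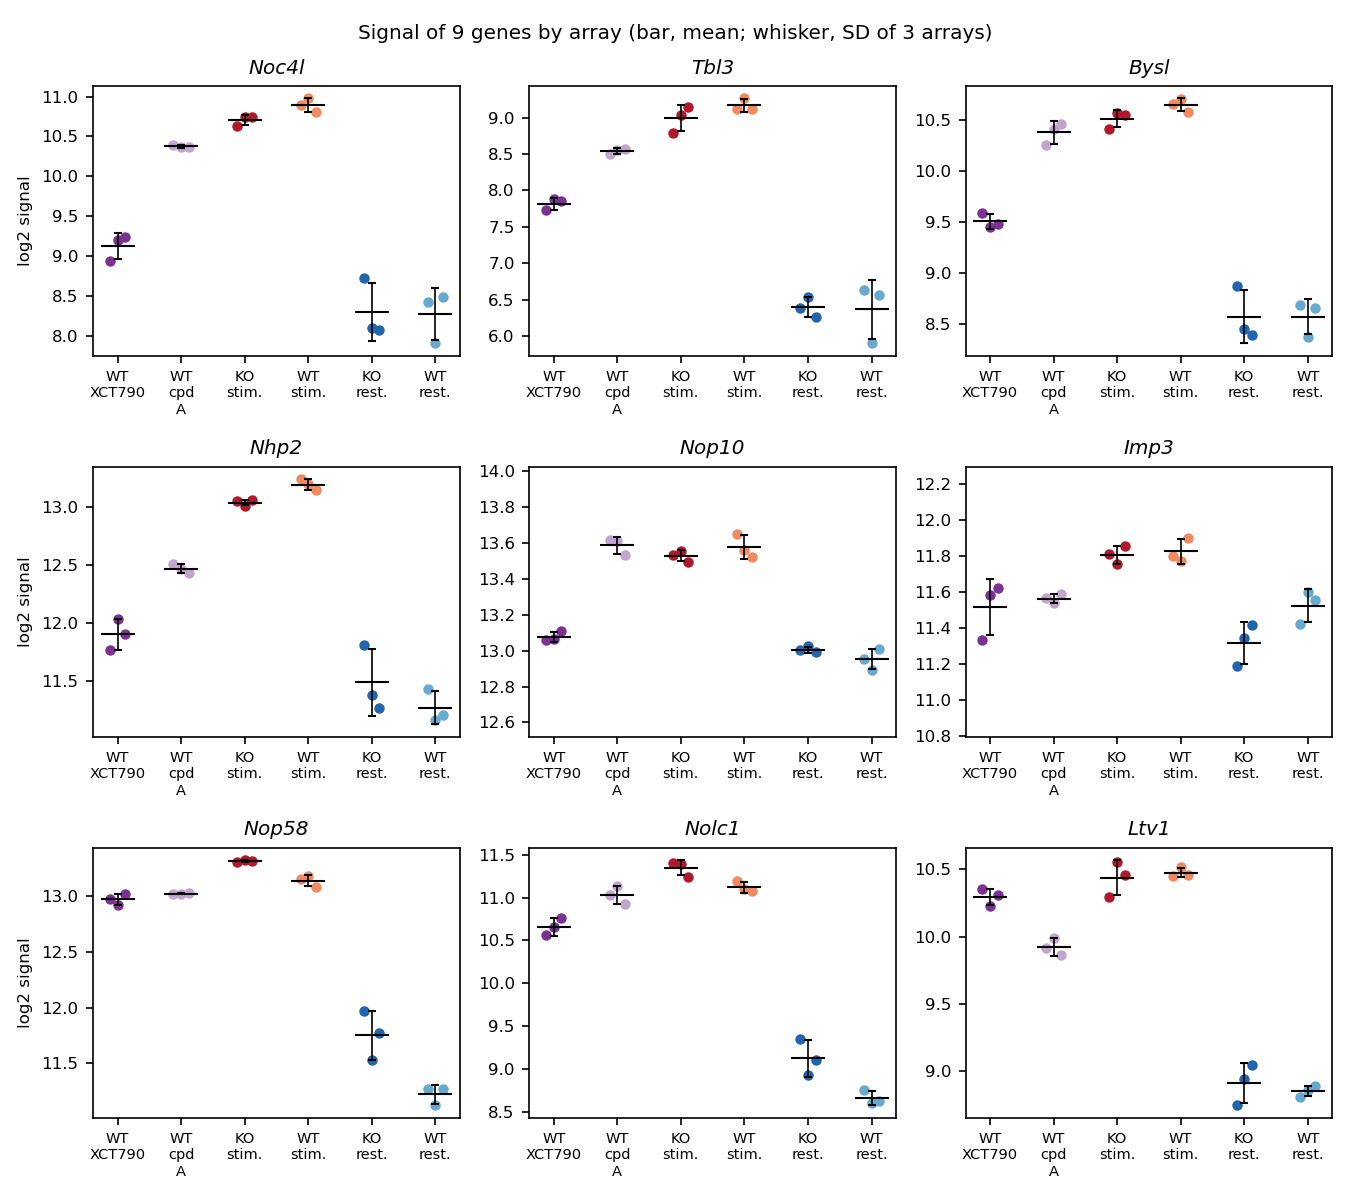
Log2 signal of 9 of the genes on each array by group; points are arrays, the bar is the mean and the whisker the SD of 3 arrays, and each panel has its own scale. Noc4l, Tbl3, Bysl, Nhp2 and Nop10 are lower with XCT790 than with compound A, Ltv1 is higher, and Nop58 and Nolc1 are higher in KO resting than in WT resting cells.

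Set against resting WT cells, the inhibitor arrays still read higher for nearly all of these genes. With XCT790, 39 of 41 were higher and 0 lower, where 33.6% of all tested genes were called higher and 38.3% lower. With compound A, 40 were higher and 0 lower, where 32.6% were called higher and 37.1% lower; none of the 41 was lower at an unadjusted p under 0.05 with either. The median differences were 1.18 with XCT790 and 1.31 with compound A. The exceptions were Nop10 and Imp3 with XCT790, at 0.13 ± 0.055 and -0.0091 ± 0.084 (SE; limma adjusted p = 0.0517 and 0.926), and Imp3 with compound A at 0.038 ± 0.084 (adjusted p = 0.697). Bop1 was close to them with XCT790, at 0.32 ± 0.10 (adjusted p = 0.0125). Nolc1 had the largest difference from rest under both, 2.00 with XCT790 and 2.37 with compound A. Next with XCT790 came Rrp12 at 1.89, Wdr43 at 1.83, Rrp9 at 1.80, Nop58 at 1.75 and Heatr1 at 1.60. With compound A they were Tbl3 at 2.18, Noc4l at 2.10, Rrp9 at 2.04, Nop16 at 1.94 and Bysl at 1.81, so Noc4l, Tbl3 and Bysl lay near the top of the order with compound A and not with XCT790, where Noc4l was at 0.85, Tbl3 at 1.45 and Bysl at 0.94. Of the 41 genes, 26 were at least doubled over rest with XCT790 and 31 with compound A. Of all 6873 tested genes, 829 and 767 were called so.

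A wider list of 77 other ribosome biogenesis genes, none of them among the 41, was counted in the same fits. With stimulation 73 rose and 3 fell in WT cells, with a median of 1.16, where 37.0% of all tested genes rose and 38.4% fell. In KO cells 73 rose and 2 fell, also with a median of 1.16, where 37.7% rose and 35.7% fell. The largest WT rises were those of Noc3l at 3.40, Spata5 at 2.49, Utp6 at 2.32, Sdad1 at 2.23 and Naf1 at 2.15. The 3 that fell were Nop53 at -0.77, Zfp622 at -0.53 and Nsa2 at -0.40. At rest 5 were higher and 8 lower in KO than in WT cells, where 6.74% and 12.3% of all tested genes were, and after stimulation 2 were higher and 1 lower, where 1.59% and 0.597% were. With XCT790, 11 were higher and 50 lower than in stimulated WT cells (median -0.38), and with compound A, 4 were higher and 39 lower (median -0.27), where 29.1% of all tested genes were higher and 36.9% lower with XCT790, and 14.5% higher and 18.7% lower with compound A. In XCT790 minus compound A, 14 were higher and 19 lower, where 24.8% and 27.8% of all tested genes were.

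Of 13 genes of RNA polymerase I transcription, which feeds this pathway, 7 rose in WT cells with none lower, and 8 rose and 1 fell in KO cells, against the same shares over all tested genes. Polr1b, the second-largest polymerase I subunit, rose by 3.25 in WT and 2.91 in KO cells. Against stimulated WT cells, 4 were higher and 7 lower with XCT790, where 29.1% of all tested genes were higher and 36.9% lower. With compound A 0 were higher and 7 lower, where 14.5% were higher and 18.7% lower. Polr1b fell by 1.57 and 0.92 under them, and Taf1a, a subunit of the promoter selectivity factor, rose by 1.17 with XCT790. Myc, the transcription factor known for driving ribosome genes, rose by 2.25 ± 0.10 in WT and 2.21 ± 0.10 in KO cells (SE). It was lower by 1.05 with XCT790 and by 0.45 with compound A than in stimulated WT cells (log2; limma adjusted p = 6.86e-07 and 0.0046).

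The probe sets of a gene gave a further look at each comparison. Of the 41 genes, 22 had 2 or more, and 26 further probe sets, in 19 genes, reached log2 4 on at least 3 arrays. All 26 read higher after stimulation in WT and in KO cells, as did the probe sets used. In the KO minus WT differences 14 of 26 had the same sign at rest and 18 after stimulation. With XCT790 and compound A against stimulated WT cells, 19 and 21 of 26 had the same sign, and 19 in XCT790 minus compound A. Some of the exceptions followed the dap divide. The other Ddx10 probe set averaged 9.23 ± 0.25 with XCT790, 8.84 ± 0.25 with compound A and 9.09 ± 0.35 in KO stimulated cells, against 6.95 ± 0.21 in WT stimulated cells (SD, n = 3). At rest it averaged 7.73 ± 0.75 in KO cells and 5.51 ± 0.23 in WT cells, whereas the probe set used differed by -0.22 there. The first of the Nolc1 probe sets given above was no such exception in the KO minus WT differences, where it had the sign of the probe set used. After stimulation it averaged 9.47 ± 0.26 in KO and 8.89 ± 0.15 in WT cells, and with XCT790 it averaged 8.60 ± 0.13 (SD, n = 3).

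**Figure D5:**
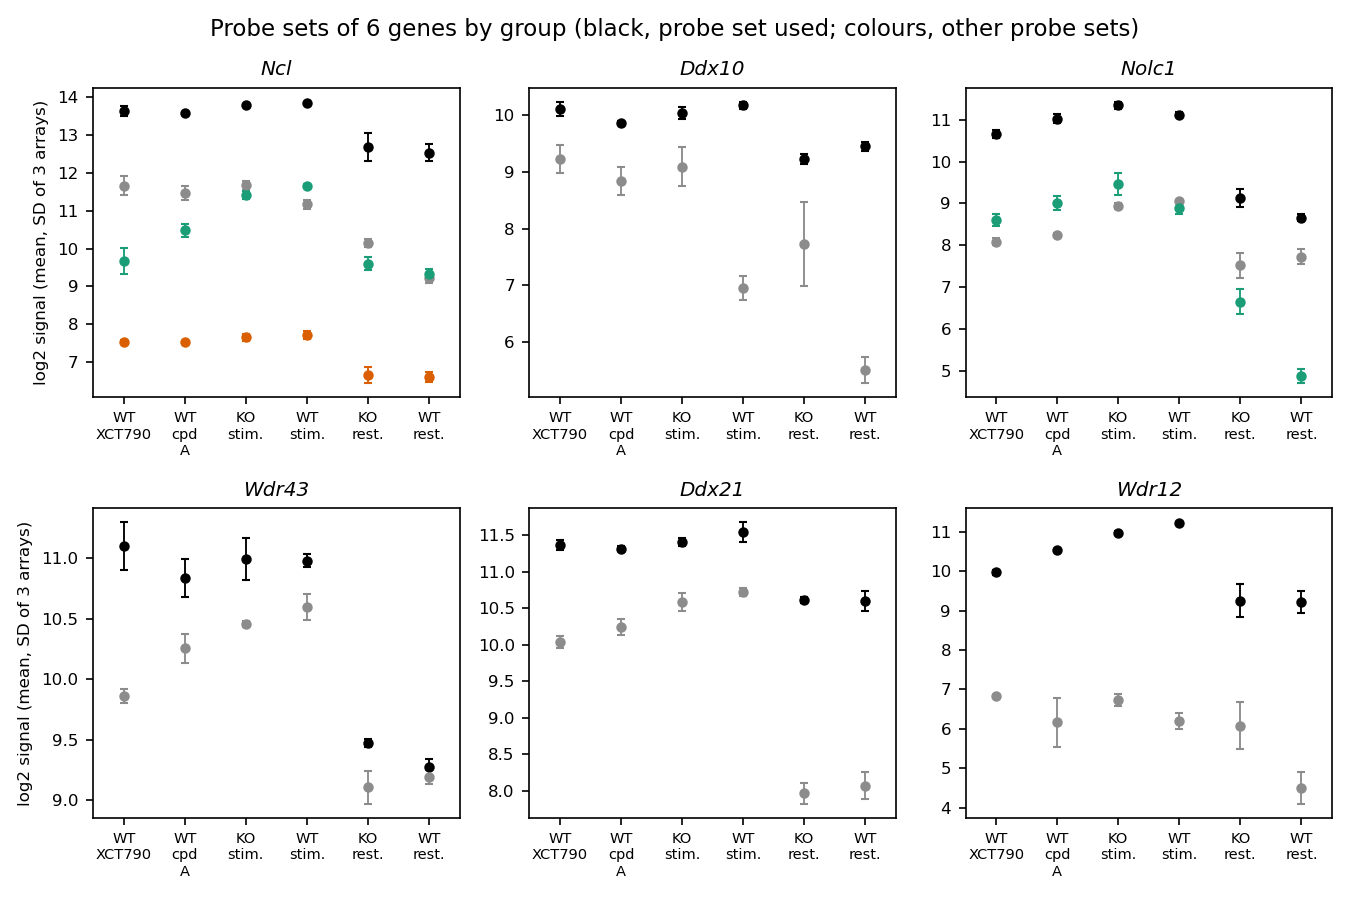
Mean log2 signal and SD of 3 arrays for every probe set of 6 of the genes that reached log2 4 on at least 3 arrays; black is the probe set used, colours are others of the same gene, and each panel has its own scale. All are higher in stimulated than in resting cells, and those of Ncl diverge with XCT790. Among the probe sets higher in KO than in WT cells of either state are the other ones of Ddx10 and Wdr12, and some of Nolc1 and Ncl.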

How the data were processed

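RNA from 18 samples was hybridised to Affymetrix arrays, 1 sample per array. Each deposited value is a log2 signal of a probe set, which the authors computed with GCRMA per the submitters' processing notes; the sorted values are identical on all arrays, as after quantile normalization, so a difference in total RNA cannot appear. Probe sets for controls (64), with no gene name (1555) or with more than 1 (691) were dropped from the 22690. limma (version 3.58.1; R 4.3.3) fitted the 6 group means over all 6873 genes tested, with 12 residual degrees of freedom and a prior of 2.22, with two-sided p-values and the Benjamini-Hochberg adjustment, done separately per comparison over those genes. A gene was called, or rose or fell, at an adjusted p under 0.05. The script was tested on simulated data. Python 3.11.15 with matplotlib 3.10.9 drew the figures. Promoter sequences are from RefSeq, build GRCm38.p6. Alternatives changed the filter, scaling, probe set rule, prior, weights, block and arrays used; the values of a gene's other probe sets were added after seeing the data.

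The members and lists were chosen with earlier results of these data known. Named were the 10 largest and 5 smallest responses per genotype; elsewhere the 6 largest calls each way, or, with fewer than 3 calls, the 3 values furthest from 0 each way; and Esrra, Myc and the largest of the wider list. Other genes were named by role, after their values were seen.

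Equally numbered arrays deviated together from their group means (all 3 correlations over 0.1) for KO stimulated against resting (0.336, 0.266 and 0.238), KO against WT at rest (0.645, 0.406 and 0.254) and after stimulation (0.442, 0.384 and 0.148), XCT790 (0.253, 0.150 and 0.172) and compound A (0.474, 0.398 and 0.287) against stimulated WT. The pairing comes from the data alone, as the labels name no shared animal or day.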

Additional observations from a re-analysis of the deposited data

How the results depend on the processing

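All 41 genes were called higher with stimulation, and 0 lower, in both genotypes under every alternative run, fits without 1 array included, except that 37 remained among calls of at least 2-fold. Of all 6873 tested genes, 1079 were called higher by at least 2-fold in WT cells and 994 in KO cells. For KO minus WT at rest, higher calls, 2 in the report, came to 6 with the mean of all probe sets and to 0 in the compared groups alone and among calls of at least 2-fold. Lower calls, 3 in the report, came to 0 with arrays shifted to a common median, in the compared groups alone and among calls of at least 2-fold, to 7 with the mean of all probe sets, 5 with the replicate block and 9 with array weights, and ranged from 0 to 5 without 1 array. Over all 6873 tested genes, lower calls came to 599 with shifted arrays, 99 in the compared groups alone and 47 at least 2-fold. They came to 1022 with the block, 1622 with array weights and 354 to 954 without 1 array. The mean of all probe sets called 523 higher and 824 lower of 6668 genes. Higher calls over all tested genes came to 77 in the compared groups alone and 205 at least 2-fold. The cause of the shifts in these counts was not tested. After stimulation, the mean of all probe sets gave 1 higher and 1 lower, where 185 and 68 of 6668 genes were. Array weights gave 3 and 15, where 608 and 1031 of 6873 genes were. In the interaction array weights gave 1 and 3, where 688 and 534 of 6873 were. Fits without 1 array gave 0 to 1 lower there, where 11 to 84 of 6873 were. With XCT790 against stimulated WT cells, 1 was higher with the mean of all probe sets and 1 with array weights. Over all tested genes 2005 of 6668 and 2529 of 6873 were. With compound A, 1 was higher with the mean of all probe sets, where 1021 of 6668 genes were. Among calls of at least 2-fold, 9 were lower with XCT790 and 0 with compound A, where 835 and 160 of 6873 genes were. In XCT790 minus compound A, higher calls came to 6 with shifted arrays, 11 with array weights and 0 among calls of at least 2-fold. Over all 6873 tested genes they came to 1811, 2410 and 311. Fits without 1 array gave 2 to 5 higher calls, 5 without XCT790 array 2, where 1510 to 1694 of all tested genes were called higher. Among calls of at least 2-fold 1 was lower, where 453 of all tested genes were. Against stimulated WT cells, fits without 1 array gave 30 to 33 lower calls with XCT790 and 25 to 29 with compound A. Over all tested genes they gave 2369 to 2475 and 888 to 1156. The iteration for array weights stopped before its tolerance was reached. The replicate block changed no other count by over 1.5 times.

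The 68 single results were read under the alternatives, which gave 1100 values in all. Of these values 1 reversed, Wdr12 in XCT790 minus compound A with the mean of all probe sets (0.058). Another 28 values lost the call under alternatives other than the limit of 2-fold. Several of the 28 can belong to 1 result, as with Bop1, Tsr1 and Utp18 at rest. Among the 28, Nop58 and Nolc1 in KO minus WT at rest lost the call in the compared groups alone (limma adjusted p = 0.0834 and 0.102). Rrp12 and Wdr12 with compound A lost it against KO stimulated cells (limma adjusted p = 0.0793 and 0.0613). With 3 arrays per group, the median half-width of the 95% intervals was 0.21 (log2), which limits what the genotype comparisons could resolve.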
